A study of Mus musculus with 12 samples.

Results

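Olfr78 and Olfr558 are a pair of class I odorant receptor genes on mouse chromosome 7 that are best known from tissues other than the nose. They were taken as the rows carrying those symbols, which gave 2 of the 39395 genes listed, and their wild-type levels were placed among all 1266 listed genes with a symbol that starts with Olfr. The samples were olfactory mucosa, the nasal lining that holds the olfactory sensory neurons, from 12 male mice at postnatal day 30 on a mixed 129S6;C57BL/6J background. In 6 animals, called deletion animals here, 408217 bp of chromosome 7 had been removed (GRCm38, chr7:102509797-102918014), which the labels describe as a deletion of a class I receptor enhancer. The other 6 animals were age-matched wild-type mice. The labels used here do not state whether 1 or both copies of the chromosome carried the deletion. Every animal gave 1 library of total RNA, depleted of ribosomal RNA and made with a strand-specific kit, so the spread between libraries covers animals and library preparation together.

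Odorant receptors are G protein-coupled receptors, and a mature olfactory sensory neuron expresses as a rule a single receptor gene from one of its alleles. Class I receptors, whose genes lie in a single cluster on mouse chromosome 7, are related to the receptors of fish, and many of them respond to carboxylic acids. Class II receptors make up the rest of the family. Olfr78 (also named Or51e2) responds to short-chain fatty acids such as acetate and propionate. It is expressed in oxygen-sensing glomus cells of the carotid body, where lactate was proposed as a ligand and its role is disputed, and in vascular smooth muscle and renin-secreting cells of the kidney. Olfr558 (also named Or51e1) responds to short- and branched-chain fatty acids such as butyrate and isovalerate, and is known from vascular smooth muscle and from enterochromaffin cells, the serotonin-releasing cells of the gut lining. Both have human counterparts and both are also found in olfactory sensory neurons.

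Both genes lie well inside the deleted interval. Olfr78 (ENSMUSG00000043366.16) occupies chr7:102738511-102759471 on the minus strand, 228714 bp from the start of the deletion and 158543 bp from its end. Olfr558 (ENSMUSG00000070423.6) occupies chr7:102702215-102712064 on the plus strand, 192418 bp from the start and 205950 bp from the end. In the GENCODE M21 annotation the exons of Olfr78 form 5 blocks with 6033 bases in all, of which the coding sequence takes 960 (320 codons with the stop, chr7:102742042-102743001). Those of Olfr558 form 2 blocks with 3041 bases, and its coding sequence takes 951 (317 codons with the stop, chr7:102709261-102710211). Most of each annotated RNA is therefore untranslated, and a read assigned to either gene need not come from its receptor-coding part.

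The exons of Olfr78 and of another receptor gene on the same strand, Olfr560 (chr7:102751818-102759366), overlap by 926 bases. These are 15.3% of the exon bases of Olfr78 and 42.7% of those of Olfr560. How a read within the shared bases was assigned is not known, because the sources used here do not name the counting tool. Olfr558 shares no exon base with another gene on its strand, and 101 of its bases lie opposite an exon of the pseudogene Gm45688. Of 6026 windows of 50 bases from the transcripts of Olfr78, 853 (14.2%) were found letter for letter, on either strand, in a transcript of another gene, and 24 of these in genes other than Olfr560. Of 2992 such windows of Olfr558, 52 (1.74%) were found elsewhere, all in Gm45688. Within the coding sequences none of the 911 windows of Olfr78 and none of the 902 windows of Olfr558 had a copy in another gene, so reads from the receptor-coding parts can be told apart at this length.

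Among 1114 Olfr coding sequences compared, the coding sequence nearest to Olfr78 was that of Olfr558, and the nearest to Olfr558 was that of Olfr78, at 63.4% nucleotide identity (621 identical positions of 980 alignment columns, 49 of which hold a gap). The longest stretch without a difference was 23 bases. For Olfr78 the next nearest were Olfr562-ps1 and Olfr560, both at 62.0%, and for Olfr558 they were Olfr555 at 63.1% and Olfr557 at 63.0%. All 4 of these genes are in the deleted interval too. The median identity was 57.7% for Olfr78 and 58.6% for Olfr558 over 132 class I genes, and 52.3% and 52.7% over 982 class II genes. A pair of aligned windows of 60 bases shows where the coding sequences are most and least alike, with capitals marking the bases that differ between the genes. In the window in which they are most alike, 49 of 60 bases (81.7%) are the same. The sequences are from the GRCm38 genome with GENCODE M21 coding positions, 5′ to 3′ on the coding strand, at chr7:102742809-102742868 (minus strand, coding bases 134 to 193) for Olfr78 and chr7:102709403-102709462 (plus strand, coding bases 143 to 202) for Olfr558.
Olfr78: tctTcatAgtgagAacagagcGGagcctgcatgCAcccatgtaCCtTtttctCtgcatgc
Olfr558: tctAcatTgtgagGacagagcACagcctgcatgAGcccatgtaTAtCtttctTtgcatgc
In the window in which they are least alike, 32 of 60 bases (53.3%) are the same. It lies at chr7:102742506-102742565 (minus strand, coding bases 437 to 496) for Olfr78 and chr7:102709706-102709765 (plus strand, coding bases 446 to 505) for Olfr558.
Olfr78: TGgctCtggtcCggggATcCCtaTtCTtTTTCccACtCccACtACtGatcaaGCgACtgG
Olfr558: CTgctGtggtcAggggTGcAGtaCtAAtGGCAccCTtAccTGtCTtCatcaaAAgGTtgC

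**Figure D1:**
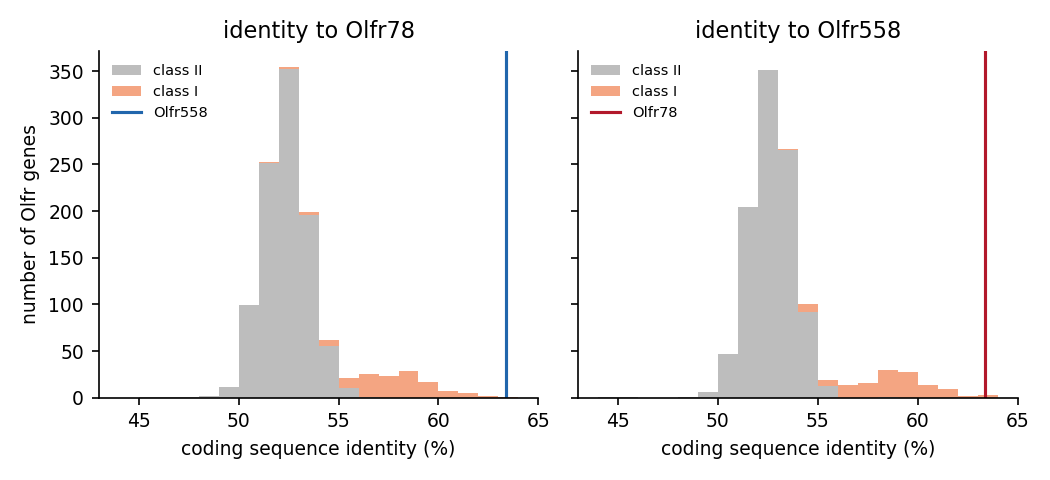
Nucleotide identity (percent) of Olfr coding sequences with that of Olfr78 and with that of Olfr558, for class I and class II genes, with the other gene of the pair marked. The highest class II value is 56.1% for Olfr78 and 58.6% for Olfr558, below the 63.4% that the pair share.

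The libraries held between 10091239 and 18612011 recovered reads, and the 6 wild-type libraries between 13942401 and 18044908. At least 1 read was found for 65.2% to 69.3% of listed genes in wild-type libraries. In deletion libraries the share was 67.2% to 75.6% in 4 animals, 80.6% in replicate 2 and 94.6% in replicate 3. These last 2 libraries therefore stand apart in how many genes have a read. They also held the fewest recovered reads of all 12 libraries, 13003790 in replicate 2 and 10091239 in replicate 3. Deletion replicates 4 and 5, at 73.1% and 75.6%, were above every wild-type library too. The cause was not tested. Counts below are normalized counts, which the authors made by dividing a library's reads by its size factor, so that 1 read is worth 0.816 to 1.37.

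Both receptor genes were expressed in the mucosa of every wild-type animal, and no read of either was found in any deletion animal. The normalized counts of Olfr78 in wild-type replicates 1 to 6 were 105.7, 86.7, 81.6, 85.0, 96.3 and 119.0, from 101, 106, 87, 73, 93 and 125 reads. Replicate 6 was highest and replicate 3 lowest. The mean was 95.7 ± 14.4 (SD, n = 6), against 0 reads in all 6 deletion libraries. Taking 3 counts over the deletion libraries together as the limit that a count of 0 allows, a mean normalized count of 0.494, Olfr78 was at least 194-fold lower in deletion animals. The limma model fitted across all genes gave a log2 fold change of −6.58 ± 0.23 (SE) with a Benjamini-Hochberg adjusted p of 5.28e-13.

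The normalized counts of Olfr558 in wild-type replicates 1 to 6 were 69.1, 66.3, 67.5, 72.2, 63.1 and 85.7, from 66, 81, 72, 62, 61 and 90 reads. Replicate 6 was again highest, and the other 5 animals lay close together. The mean was 70.6 ± 7.97 (SD, n = 6), and all 6 deletion libraries had 0 reads, which makes Olfr558 at least 143-fold lower there by the same limit. Its log2 fold change was −6.16 ± 0.24 (SE), with a limma adjusted p of 2.57e-12. Fold changes from the model are on the log2(normalized count + 1) scale, so for genes at 0 they depend on the added 1 and are no bound.

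Both genes, 2 of 2, were thus called lower, against 0.445% of the 17320 genes tested. The groups did not overlap for either gene, as for 0.497% of the genes tested with lower values in deletion animals. The exact two-sided permutation test gave p = 0.00216 for each gene, the smallest that 924 assignments of 6 against 6 allow. The sequence of both genes is removed, and only wild-type animals gave them reads enough for a test. These outcomes were thus fixed in advance and are no result about the pair. In the authors' deposited table the log2 fold change, there given as wild-type over deletion, was 1.29 for Olfr78 and 1.15 for Olfr558, with adjusted p-values of 9.31e-65 and 4.20e-53. These fold changes are far smaller than the bounds above although they come from the same counts, and how they were estimated was not stated in the sources used here, so they are not read as the size of the difference. The genes' absence from deletion libraries checks the genotype labels, since both lie in the removed interval. It held in deletion replicates 2 and 3 as well, the libraries in which more genes had a read than in any other.

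Summed over the 6 wild-type libraries there were 585 reads of Olfr78 (95% Poisson interval 539 to 634) and 432 of Olfr558 (392 to 475). Intervals and limits here cover counting error only. The coefficient of variation between animals was 15.1% for Olfr78 and 11.3% for Olfr558. Counting alone would give an SD of 9.75 for Olfr78 and of 8.37 for Olfr558, beside observed SDs of 14.4 and 7.97. These SDs were not tested against counting error. Of 527 Olfr genes with a wild-type mean count within 2-fold of that of Olfr78, 124 had a lower coefficient of variation, and the median was 19.6%. Of 544 such genes for Olfr558, 53 had a lower one, and the median was 20.5%. As a share of all reads assigned to Olfr genes, Olfr78 made up 0.0968% ± 0.0174 (SD, n = 6) and Olfr558 0.0714% ± 0.0106.

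Placed among all receptor genes by reads per kilobase, both were ordinary members of the family. Levels were compared between genes as normalized reads per kilobase of annotated exon, a scale on which the median listed Olfr gene stood at 16.1 in wild-type animals, with quartiles of 5.85 and 31.7. Olfr78 stood at 15.9 ± 2.39 (SD, n = 6; 13.5 to 19.7), which is rank 642 of 1266 from the top. Olfr558 stood at 23.2 ± 2.62 (20.8 to 28.2), which is rank 440. In single animals the rank ran from 551 to 719 for Olfr78 and from 366 to 516 for Olfr558. Among the 145 class I genes they were 83rd and 60th, where the class I median was 20.3 and the class II median 15.8. At the top of the order were Olfr1507 (576 ± 222), Olfr536 (380 ± 68.1) and Olfr727 (287 ± 159), and 79 Olfr genes had no read in any wild-type library.

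The neighbours of both genes in this order did not differ from them beyond the spread between animals. Directly above Olfr78 was Olfr461 at 15.9 ± 3.12 and directly below it Olfr1270 at 15.8 ± 1.71. Directly above Olfr558 was Olfr1231 at 23.3 ± 3.16 and directly below it Olfr707 at 23.2 ± 4.84. Within 1 SD of the mean of Olfr78 lay 125 other Olfr genes, and within 1 SD of that of Olfr558 lay 109. Differences of a few places in the order are thus smaller than the spread between animals. The rank of Olfr78 also depends on the length used. It was 558 with only the exon bases that belong to one gene, 524 with the longest transcript, 362 of 1120 genes with the coding length, and 356 without length scaling, while that of Olfr558 stayed between 441 and 477 under the same 4 choices. The deposited values do not show which of the annotated transcripts of Olfr78 are present in the mucosa.

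**Figure D2:**
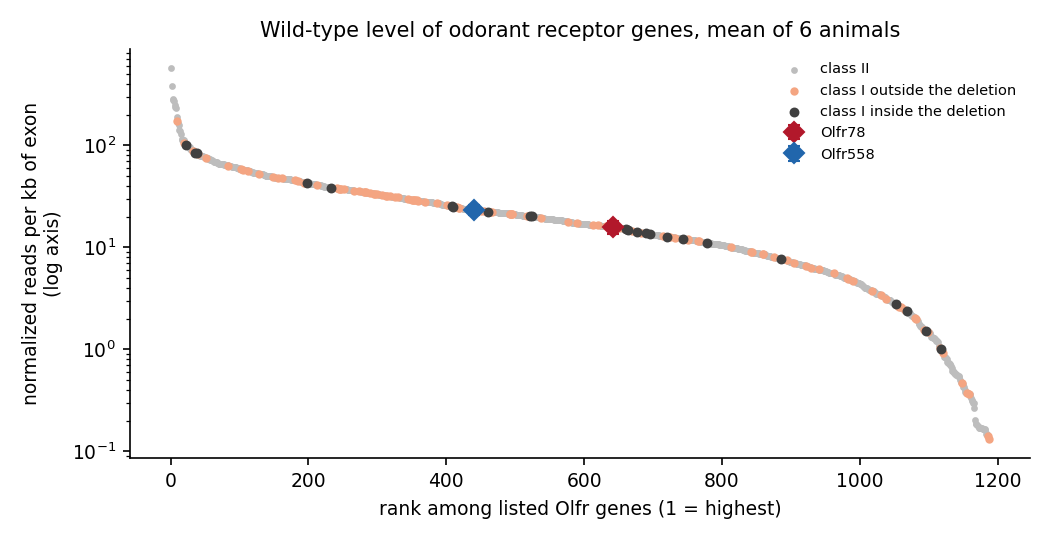
Listed Olfr genes in order of their mean wild-type level (normalized reads per kilobase of exon, log axis), with Olfr78 and Olfr558 marked and genes without a wild-type read left out. Olfr78 at 15.9 lies near the median of 16.1 and Olfr558 at 23.2 somewhat above it.

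Within the removed interval Olfr78 lay near the median of the class I receptor genes and Olfr558 above it. Of 25 class I genes there, Olfr558 was 8th and Olfr78 12th in reads per kilobase, and the median of the 25 was 15.0, with an upper quartile of 25.1 and a highest value of 102. The highest were Olfr549 (101.7 ± 16.7), Olfr568 (84.9 ± 11.3) and Olfr570 (83.8 ± 12.4). Of all reads in the interval, Olfr78 held 5.34% ± 0.50 and Olfr558 3.96% ± 0.393 (SD, n = 6 wild-type animals). All 21 of the 30 listed genes there that could be tested were called lower in deletion animals, against 0.445% of all genes tested. That share includes these genes. Their sequence is removed and only wild-type animals gave them reads enough for a test, so this outcome was fixed in advance. In the interval 3 reads in all were left in the deletion libraries, beside 10880 in the wild-type libraries. No expressed intact copy of the interval was thus seen in deletion animals, although the labels do not state how many copies carried the deletion.

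The genes next to them on the chromosome spanned a wide range. Olfr557, next to Olfr558 on the side of the deletion's start, stood at 42.7 ± 11.4 normalized reads per kilobase, above Olfr558 in level. Its normalized counts in wild-type replicates 1 to 6 were 146.5, 79.3, 107.8, 111.7, 88.0 and 155.2, so that replicate 6 was again the highest, and its SD was 26.6% of its mean. On the other side of Olfr558, Olfr33 stood at 20.1 ± 4.23, below the mean of Olfr558 by less than its own SD. Olfr559, on the side of Olfr78 nearest to the deletion's start, was at 13.7 ± 4.58, and Olfr561, on its other side, at 25.2 ± 4.15. Olfr560, which shares its exons in part with Olfr78, was far lower at 2.75 ± 2.76. Its normalized counts in wild-type replicates 1 to 6 were 6.28, 2.45, 2.81, 17.5, 1.04 and 5.71, from 34 reads in all. The highest Olfr560 value came from replicate 4, in which Olfr78 was at 85.0, below its mean, and the next highest from replicates 1 and 6, the highest for Olfr78.

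**Figure D3:**
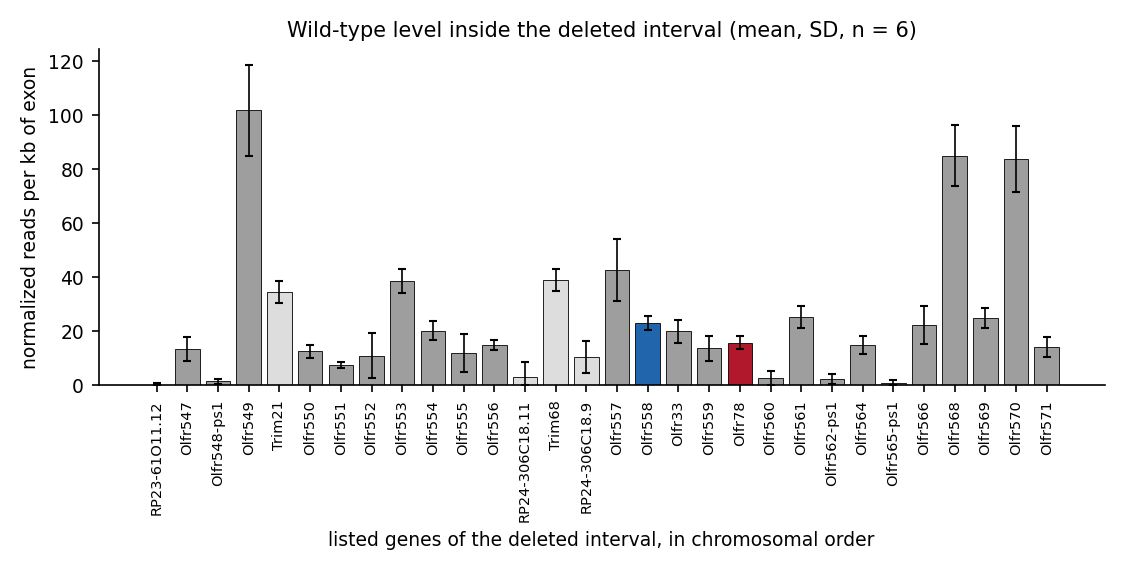
Mean wild-type level (normalized reads per kilobase of exon, bars with SD cut at 0, n = 6) of the listed genes of the deleted interval in their order along the chromosome, with Olfr78 and Olfr558 marked. Olfr78 at 15.9 lies near the median of 15.0 of the class I genes there and Olfr558 at 23.2 above it, both below Olfr549 at 101.7.

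Olfr558 was the higher of the pair per kilobase of annotated exon, and the lower of the pair by count. The log2 ratio of Olfr78 to Olfr558 per kilobase was −0.37, −0.60, −0.72, −0.75, −0.38 and −0.51 in wild-type replicates 1 to 6. Olfr558 was thus higher in 6 of 6 animals, by 1.47-fold on average, with a mean log2 ratio of −0.56 ± 0.16 (SD, n = 6). The exact two-sided sign-flip permutation test gave p = 0.03125, the smallest that 64 sign flips allow. The sign of this ratio rests on the length by which the counts are divided. It was −0.32 with exon bases of one gene only and −0.19 with the longest transcript of each gene (4695 and 3041 bases). With the coding lengths, which are nearly equal, it turned to 0.42, and without length scaling it was 0.43, with Olfr78 1.35-fold higher in 6 of 6 animals. Which of the genes has more RNA molecules in this tissue cannot be told from these values without knowing which transcripts are present. Under each length the ratio varied little between animals, with an SD of 0.16.

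**Figure D4:**
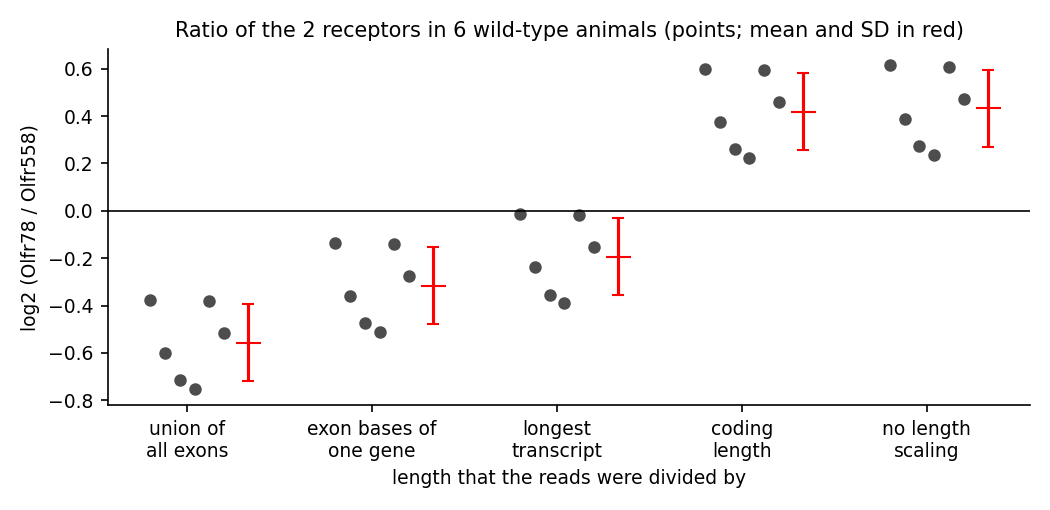
Log2 ratio of Olfr78 to Olfr558 in each wild-type animal under each choice of length, with the mean of the 6 animals. Below 0 Olfr558 is higher: the means run from −0.56 with all exon bases to 0.43 without length scaling.

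Across the 6 wild-type animals the levels of the pair were not shown to vary together. Pearson's r between Olfr78 and Olfr558 on the log2(normalized count + 1) scale was 0.64 (exact permutation p = 0.15, 0.375 after Benjamini-Hochberg adjustment over 5 relations) and Spearman's rho was 0.31 (exact permutation p = 0.564, adjusted 0.823). Without the 2 animals farthest from the median, r was 0.0868, so the value rests on those animals. With the mean level of 11 markers of mature olfactory sensory neurons, r was −0.70 for Olfr78 (exact permutation p = 0.132, adjusted 0.375; rho −0.43) and −0.55 for Olfr558 (p = 0.283, adjusted 0.472; rho 0.0857). With 6 markers of vascular smooth muscle, r was −0.32 for Olfr78 (exact permutation p = 0.5375, adjusted 0.5375; rho −0.26) and 0.32 for Olfr558 (p = 0.485, adjusted 0.5375; rho 0.54). None of these relations passed. With the 2 animals farthest from the median left out, r of Olfr78 with the neuron markers turned from −0.70 to 0.50, r of Olfr558 with them from −0.55 to 0.62, and r of Olfr78 with the smooth muscle markers from −0.32 to 0.43.

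Genes with placeholder symbols, such as Gm or Rik names, were left out when the genes most alike in pattern were named. Among the rest, the genes whose values over the 6 wild-type animals were most like those of Olfr78, by Pearson's r, were Fubp3 (0.979), Ppard (0.977) and Acat2 (0.971). For Olfr558 they were Serpinf1 (0.988), Ak5 (0.981) and Irx3 (0.975). None of the 6 is an odorant receptor gene. None was called between the groups, but only 0.497% of all genes tested were called, so this says little about them. Over 6 animals r values this high arise readily among many genes. An r above 0.9 was found for 78 of 17319 genes (0.450%) with Olfr78 and for 72 (0.416%) with Olfr558. The pair were not each other's nearest in this respect. Of 17319 genes, 1075 had a higher r with Olfr78 than Olfr558 did, and 861 had a higher r with Olfr558 than Olfr78 did.

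The tissue carried the markers of its labelled cells and of vascular smooth muscle, and markers of the other cells from which the pair are known were mixed. All 11 markers of mature olfactory sensory neurons were tested, with summed normalized counts of 147934 to 196711 in wild-type and 142495 to 188233 in deletion animals, among them Omp at 60163 ± 9286 (SD, n = 6 wild-type). The 6 markers of vascular smooth muscle were present in all animals, with sums of 4391 to 5638 and 3753 to 5041. Their levels differed widely, with wild-type means from 2650 for Acta2 down to 13.1 for Tagln, which had 80 wild-type reads. Neither list had a member called in either direction, nor did the 4 markers of immature neurons or the 3 listed markers of sustentacular cells, the supporting cells of the epithelium. Of all genes tested 0.497% were called, so 0 calls in lists this short says little about them. By limma 1 of these markers, the sustentacular enzyme Cyp1a2, had an unadjusted p under 0.05, at 6478 ± 772 in wild-type and 5605 ± 497 in deletion animals (limma adjusted p = 0.955). Which cells of the mucosa held the RNA of Olfr78 and Olfr558 was not tested, and in bulk tissue fewer cells of a type and less RNA per cell cannot be told apart.

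Of markers of carotid body glomus cells, 6 of 8 were listed, with sums of only 36.1 to 65.7 in wild-type animals. The highest of them, Slc18a1, had a wild-type mean of 25.8, above that of the smooth muscle marker Tagln. In deletion animals the sum was 122.2 in replicate 3 and 47.2 in the lowest animal. Both markers of renin-secreting kidney cells were nearly absent from wild-type libraries, Ren1, which encodes renin, with 3 reads and Akr1b7 with 2. In deletion libraries they had 26 reads and 1 read. Their sums ran from 0 to 3.11 in wild-type and from 0 to 20.6 in deletion animals, with the highest again in replicate 3. Of 4 enterochromaffin markers 3 were listed, and these differed in level. Chga and Chgb, which encode secretory granule proteins, stood at 10174 ± 1178 and 534 ± 103 (SD, n = 6 wild-type), while Lmx1a, a transcription factor of these cells, had 2 wild-type and 17 deletion reads. The 4 melanocyte markers summed to 12.8 to 20.4 in wild-type and 15.0 to 54.9 in deletion animals, also highest in replicate 3. No marker listed was without a read in all wild-type libraries. Among the 2 glomus and 2 enterochromaffin markers that could be tested, no marker was called. With 0.497% of all genes tested called, this says little about so few markers. The renin-cell and melanocyte markers had too few reads for a test. In deletion replicate 3, where these sums were highest, more genes had a read than in any other library.

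The nearest relative left in the genome, Olfr641, was lower in deletion animals. This class I gene at chr7:104035445-104042072, outside the deletion, has the highest coding identity to both Olfr78 (61.7%, rank 5 of 1114) and Olfr558 (62.9%, rank 4) among genes that remain, and was singled out after the values had been seen. Its normalized counts in wild-type replicates 1 to 6 were 20.9, 14.7, 12.2, 19.8, 21.7 and 39.0, and in deletion replicates 1 to 6 they were 3.1, 6.7, 9.6, 5.1, 5.6 and 5.7. The groups did not overlap, with wild-type replicate 6 well above the others. Of all genes tested, 0.497% likewise had all deletion values below all wild-type values, and 0.445% were called lower. The log2 fold change was −1.65 ± 0.30 (SE), with a limma adjusted p of 0.00713, from means of 21.4 ± 9.42 and 5.97 ± 2.16 (SD, n = 6 each). Over the 20 alternatives run, the limma, edgeR or DESeq2 adjusted p ran from 0.000361 to 0.0590 and was under 0.05 in 19. No rise in the closest remaining relative was seen in deletion animals. These animals lack the whole interval, which the labels describe as a deletion of a class I receptor enhancer. Loss of the pair and loss of the rest of the interval therefore cannot be told apart here.

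The signalling proteins that odorant receptors act through did not pass the test. The list held the olfactory G protein subunits, the adenylyl cyclase Adcy3, the cyclic nucleotide-gated and chloride channels and transporters, and the chaperones of receptors. Of its 21 members 19 were listed and tested, and 0 were called by limma, edgeR or DESeq2. Of all genes tested, limma called 0.497%, with 0.445% lower and 0.052% higher in deletion animals. Their log2 fold changes ran from −0.38 to 0.08 with a median of −0.05, beside a median of −0.01 over all genes tested. By limma 1 member had an unadjusted p under 0.05. This was Slc12a2, the transporter that loads the neurons with chloride, at 11810 ± 696 in wild-type and 10662 ± 718 in deletion animals (log2 fold change −0.15 ± 0.06 SE, limma adjusted p = 0.955). The member with the next smallest p was Gng13, a G protein gamma subunit, at 1686 ± 434 and 1323 ± 504 (log2 fold change −0.38 ± 0.22 SE, limma adjusted p = 0.955).

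Other receptors for fatty acids and lactate were mostly at the edge of detection in the mucosa. Hcar2, a receptor for butyrate and ketone bodies, was the only one of 6 that could be tested. Its normalized counts were 70.1, 40.1, 52.5, 32.6, 79.7 and 79.0 in wild-type and 48.2, 49.4, 50.8, 48.9, 50.7 and 62.8 in deletion replicates 1 to 6. All deletion animals lay within the wild-type range, and the log2 fold change was −0.11 ± 0.20 (SE; limma adjusted p = 0.955). In wild-type animals Hcar2 stood at 30.6 normalized reads per kilobase, which is beside the 23.2 of Olfr558 and the 15.9 of Olfr78.

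Hcar1, the lactate receptor, was at 1.48 per kilobase from 30 wild-type reads, and Ffar4, a receptor for long-chain fatty acids, at 5.67 from 47 reads. The receptors for short-chain fatty acids, which share ligands with Olfr78, were scarcer, with Ffar2 at 0.663 from 12 reads and Ffar3 at 0.0858 from 1 read. Ffar1, a receptor for medium- and long-chain fatty acids, had 1 read. In wild-type and deletion animals the mean normalized counts were 1.85 and 5.38 for Ffar2, 4.87 and 9.22 for Hcar1, and 7.95 and 7.59 for Ffar4. They were 0.159 and 1.52 for Ffar1 and 0.159 and 1.30 for Ffar3, and none of these 5 had enough reads to be tested. Without deletion replicate 3, the library in which the most genes had a read, the deletion means were 3.71 for Ffar2, 8.32 for Hcar1, 6.64 for Ffar4, 0.449 for Ffar1 and 0.732 for Ffar3. Per kilobase of exon, Olfr78 and Olfr558 were thus above all the receptors of this list except Hcar2 in wild-type mucosa, and they were the members of this group that the deletion removes.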

How the data were processed

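Total RNA of 12 libraries was analysed, 6 from wild-type and 6 from deletion mice, grouped by the labels. Per the labels' protocols the libraries were ribodepleted and strand-specific. STAR 2.6.0, the build GRCm38.p6 and DESeq2 are given by the submitters' processing notes. The deposited values are a per-gene signal, read counts that the authors divided by a size factor per library. Whole reads were recovered for 100% of values (tolerance 0.01 of a read). The deposited table also gives the authors' log2 fold change (wild-type over deletion), p-value and adjusted p-value, and a Wald score that was not used. One incomplete row of 39396 was left out. The 10091239 to 18612011 recovered reads per library set the precision.

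Identifiers of 39296 genes (99.7%) matched GENCODE M21 without their version. Class I genes were the Olfr genes of the chromosome 7 cluster. The test was limma 3.58.1 (R 4.3.3) with trend and robust moderation on log2(value + 1), for 17320 genes kept by the filter of edgeR 4.0.16 (minimum count 10), two-sided, Benjamini-Hochberg adjusted, threshold 0.05. DESeq2 1.42.0 and edgeR's quasi-likelihood test on recovered reads, other scaling, pseudocounts, filter, a replicate block and libraries left out were alternatives. On simulated data the limma step was tested with known fold changes. No pair of libraries agreed within sampling noise.

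The members and lists were chosen with earlier results of these data known. Named genes were, besides the pair, their neighbours in level and on the chromosome, the top 3 of the order, the highest 3 of the interval, the 3 nearest relatives, the 3 most alike in pattern, and the list members called or else the 2 with the smallest p. Genes with placeholder symbols, such as Gm or Rik names, were left out of those most alike in pattern. The nearest relatives were found by global alignment of coding sequences, in place of the protein sequences the rule named, which were not used here. The list members Th, Higd1c, Tph1, Ugt2a1, Ric8b and Grk3 were not analysed here.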

Additional observations from a re-analysis of the deposited data

Results flagged for a closer look

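In 55 sets of 6 values, 10 held an animal farther from the others than Dixon's 95% limit allows, where chance alone gives about 1 in 20 sets of continuous values. In the sets of Trim68 in deletion animals and of Ffar1 and Ffar3 in wild-type animals a single read stands beside zeros, which passes the limit by construction. No set of Olfr78 or Olfr558 was among them. Values are normalized counts. Of genes tied to the pair, Olfr560, which overlaps Olfr78, was at 17.5 in wild-type replicate 4 and at 1.04 to 6.28 in the other wild-type animals. Olfr33, beside Olfr558, was at 28.1 in wild-type replicate 3 and at 47.4 to 54.9 in the others. Olfr641, the nearest relative left, was at 39.0 in wild-type replicate 6 and at 12.2 to 21.7 in the others. Olfr1231, next to Olfr558 in level, was at 68.3 in wild-type replicate 5 and at 91.4 to 101 in the others. Irx3, whose pattern is like that of Olfr558, was at 30.5 in wild-type replicate 6 and at 16.6 to 19.9 in the others.

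The other 5 sets were of deleted or scarce genes and of Hcar2. Trim68, in the removed interval, was at 1.03, a single read, in deletion replicate 1 and at 0 in the other deletion animals. Ffar1 was at 0.952 in wild-type replicate 6 and at 0 in the other wild-type animals, and at 6.87 in deletion replicate 3 with 0 to 2.24 in the other deletion animals. Ffar3 was at 0.952 in wild-type replicate 6 and at 0 in the other wild-type animals. Hcar2 was at 62.8 in deletion replicate 6 and at 48.2 to 50.8 in the other deletion animals.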

How the results depend on the processing

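The calls of Olfr78 and Olfr558 and their direction were the same under all 20 alternatives run, as were the counts of 0 in the transduction and fatty acid receptor lists. Leaving out 1 animal at a time, the log2 fold change ran from −6.63 to −6.52 for Olfr78 and from −6.19 to −6.10 for Olfr558. Its size depends on the method, since the deletion libraries are at 0: for Olfr78 and Olfr558 it was −4.32 and −3.91 with a pseudocount of 5, −7.58 and −7.15 with 0.5, −9.01 and −8.57 with DESeq2 and −9.60 and −9.16 with edgeR. Leaving out deletion libraries cannot change it, for the same reason. The ratio of the pair changed sign with the coding length (0.42) and without length scaling (0.43). Leaving out 1 wild-type animal it ran from −0.59 to −0.52, with p = 0.0625, the smallest that an exact permutation test on 5 animals allows. The rank of Olfr78, 642 with all exon bases, became 356 without length scaling, 558 with exon bases of one gene, 524 with the longest transcript and 362 of 1120 with the coding length. The last 3 lengths for the rank, the first 2 of them for the ratio, the fit without deletion replicates 2 and 3, and the receptor means without deletion replicate 3 were chosen after seeing the data.

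The number of genes called higher in deletion animals, 9, became 15 with DESeq2, 16 without the filter, 5 with the replicate block and 23 without deletion replicates 2 and 3, and ran from 6 to 17 with 1 library left out. The highest, 17, came without deletion replicate 2. The number called lower, 77, stayed between 72 and 90. With the replicate number as a block the log2 fold changes of the pair were again −6.58 and −6.16, with limma adjusted p of 1.44e-08 and 4.71e-08, and Olfr641 no longer passed (adjusted p = 0.0590). The numbers do not pair the animals: same-numbered samples had correlations of −0.243 to −0.00728, and 0 of 12 samples correlated best with their own number. Causes of these shifts were not tested. Depth limits the scarce receptors, since Ffar1 and Ffar3 had 1 wild-type read each.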
